A study of Mus musculus with 2 samples.

Results

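The Ifi200 family is a set of interferon-inducible genes that lie close together on mouse chromosome 1. Its 9 members described here, of 32285 genes measured, are Ifi202b, Ifi203, Ifi204, Ifi205, Ifi207, Ifi209, Ifi211, Mndal and Aim2, taken by gene symbol. They were selected on values of these libraries, because Ifi202b had almost no transcript in the WT library and a strong signal in mutant macrophages, so its contrast between the libraries is given as a description and supports nothing else. The data were 2 droplet-based single-cell RNA-seq libraries of the temporomandibular joint (TMJ), with 1 WT library and 1 library of Prox1 mutants. Both came from joints injected with complete Freund's adjuvant (CFA), an emulsion of killed mycobacteria that inflames the joint, and both carry the labels C57BL/6 and 8 to 10 weeks of age. The study describes the mice of both libraries as female and the mutants as Prox1+/- from another laboratory's line, and names a vendor's C57BL/6J mice. The number of mice behind each library is not stated. Prox1 encodes the transcription factor that lymphatic endothelial cells need, and the heterozygotes served as a model of failing lymphatic vessels. With 1 library per genotype, the genotype, the library and any inherited difference between the mice, on chromosome 1 beside the mutant allele or elsewhere, cannot be told apart, no test between genotypes was possible, and no p-value is given. Rpl29, a ribosomal protein gene on chromosome 9, also stood far apart between the libraries, with 25116 UMIs in the WT and 586 UMIs in the mutant cells of the types compared. Whether the mice shared a genetic background beyond the C57BL/6 label was not tested, and this holds for every ratio given here.

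The family encodes PYHIN proteins. Their HIN domains bind DNA, and many also carry a pyrin domain that recruits other pyrin proteins. Aim2 senses DNA in the cytosol and assembles an inflammasome with Pycard and caspase-1, while Ifi202b protein has HIN domains but no pyrin domain and is known as an inhibitor of Aim2. Interferons of type I and type II raise many members in macrophages, and the Ifi202b transcript is known for differing between inbred mouse strains.

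All values are UMI counts, each UMI standing for 1 captured 3' end, summed over the cells of a type and divided by all UMIs of those cells, as counts per 1000000 UMIs (CPM). CPM of a 3' assay was not divided by gene length, so levels of different genes are set beside each other only in that unit. Brackets hold 95% intervals, which are exact Poisson for CPM, Clopper-Pearson for shares and conditional binomial for ratios, and they cover counting error only. The log2 ratio is the mutant CPM over the WT CPM. After filtering, 4352 WT and 5757 mutant cells remained, with median depths of 6997 and 4848 UMIs, and the files of the libraries shared 10 barcodes. Prox1 itself stood at 41.3 CPM (36.7 to 46.3) in WT endothelial cells and at 25.7 CPM (21.3 to 30.7) in mutant ones. Cell types were named from marker genes in clusters made without the family among the clustering genes, so that "macrophages" means macrophage-like cells throughout. A total of 14 types had at least 20 cells in both libraries, among them 571 WT and 729 mutant macrophages. Unnamed clusters held 407 WT and 1505 mutant cells.

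The 9 members span 680.9 kb of chromosome 1, from 173350879 to 174031810 in GRCm38, with 7 on the minus and 2 on the plus strand. Aim2 lies at one end (173350879 to 173466040) and Ifi205 at the other (174011998 to 174031810). Ifi202b (173962568 to 173982744, minus strand) stands between Ifi203, 19.9 kb away, and Ifi205, 29.3 kb away. Prox1 lies on the same chromosome, 16.1 Mb beyond Ifi202b. Since only 3' ends were counted, near-identical ends could divide UMIs between copies. In the last 500 bases of the transcripts, Ifi202b, Ifi203, Ifi204, Ifi207 and Aim2 shared no 90-base word with another gene, so that a 90-base read there would point to 1 gene. Ifi205 and Ifi211 shared 59.4% of such words, mostly with each other, Ifi209 shared 58.6%, mostly with Ifi214, and Mndal at most 8.52%, and the values of Ifi205, Ifi211 and Ifi209 are uncertain to that extent. The annotated span of Mndal (173849126 to 173942491) also encloses Ifi211 and most of Ifi203 on the same strand. A read from an intron there may not point to 1 gene. Whether intronic reads were counted is not given, and the effect on Mndal, Ifi203 and Ifi211 was not tested.

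RefSeq promoters (GRCm38.p6, 250 bases before to 50 bases after a start) were given for 8 members, all but Ifi204. They show how the members differ in the reference genome, in sequence that the selection did not use. Whether the mice of either library carried these letters, at Ifi202b or elsewhere, was not tested. The letters GAAANNGAAA, the core of an interferon-stimulated response element (ISRE), were found on either strand in 5 members, Ifi203, Ifi205, Ifi207, Ifi211 and Mndal, and in 3.44% of all 32851 promoters. The letters TTCNNNGAA of a gamma-activated site (GAS) were found in Ifi202b alone among the members, 148 bases before the start, and in 8.30% of all promoters. A RefSeq start can differ from the end of the gene given above, as it does for Aim2 and Mndal. A match is a description of letters and not a binding site. Stretches of 150 bases upstream are shown for Ifi202b, its neighbours with an ISRE and Aim2, 5' to 3' on the gene's own strand, with the matched letters in capitals and the rest in lower case.
Ifi202b, minus strand, chr1:173982845-173982994: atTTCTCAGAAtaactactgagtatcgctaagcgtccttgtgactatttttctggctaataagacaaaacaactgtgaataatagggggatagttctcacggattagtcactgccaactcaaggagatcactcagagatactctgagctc
Ifi203, minus strand, chr1:173942493-173942642: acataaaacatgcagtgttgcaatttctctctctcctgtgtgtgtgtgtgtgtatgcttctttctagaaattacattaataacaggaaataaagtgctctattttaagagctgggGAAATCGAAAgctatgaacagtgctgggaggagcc
Mndal, minus strand, chr1:173880188-173880337: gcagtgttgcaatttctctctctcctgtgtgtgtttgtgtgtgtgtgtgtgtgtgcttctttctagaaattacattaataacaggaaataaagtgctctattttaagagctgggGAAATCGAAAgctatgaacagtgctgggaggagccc
Ifi211, minus strand, chr1:173913047-173913196: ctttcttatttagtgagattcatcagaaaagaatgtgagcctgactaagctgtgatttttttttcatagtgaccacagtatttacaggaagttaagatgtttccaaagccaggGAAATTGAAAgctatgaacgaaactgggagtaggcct
Ifi207, minus strand, chr1:173741810-173741959: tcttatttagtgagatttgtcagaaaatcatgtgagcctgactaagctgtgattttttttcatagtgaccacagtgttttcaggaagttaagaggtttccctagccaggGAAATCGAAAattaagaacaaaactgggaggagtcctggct
Ifi205, minus strand, chr1:174031756-174031905: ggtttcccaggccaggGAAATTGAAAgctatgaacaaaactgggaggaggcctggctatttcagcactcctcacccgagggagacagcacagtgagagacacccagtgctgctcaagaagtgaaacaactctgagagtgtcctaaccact
Aim2, plus strand, chr1:173420454-173420603: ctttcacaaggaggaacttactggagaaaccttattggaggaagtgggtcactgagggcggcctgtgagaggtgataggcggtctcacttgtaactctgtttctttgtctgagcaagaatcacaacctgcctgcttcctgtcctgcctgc

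The stretches of Ifi203 and Mndal were near copies, with a shared run of 96 identical bases that ends beyond the ISRE. Ifi207 and Ifi211 shared a run of 31 bases, and Ifi205 and Ifi211 one of 25 bases. Ifi202b shared no run over 10 bases with any member. By this measure its stretch shared less with the 5 ISRE-bearing stretches shown than they did among themselves. Ifi203 and Mndal each had another listed start, not shown, with the ISRE letters at that of Mndal but not at that of Ifi203. Upstream of those starts, no run over 8 bases was shared with another ISRE-bearing member, and up to 9 bases were shared with Ifi202b. The contrast thus holds for the stretches shown only.

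In macrophages, Ifi202b was the gene with the highest ratio of all 8263 genes that had at least 200 UMIs, and the other 8 members stayed within 2-fold. Ifi202b had 1 UMI in WT macrophages (0.0788 CPM) and 2814 UMIs in mutant macrophages (211 CPM, 203 to 219). The single WT UMI lay in 1 resident-type macrophage whose barcode was not shared with the mutant library. The log2 ratio was 11.39 (8.91 to 16.69), or 2678-fold with a counting interval of 480.3-fold to 105815-fold, which shows how little 1 UMI limits the upper end. The macrophage with the most Ifi202b held 48 UMIs, the median mutant macrophage 2 UMIs, and the quartiles were 0 and 5. Of the mutant macrophages, 486 of 729 had a UMI (66.7%, 63.1 to 70.1). After each cell was thinned to 2000 UMIs the share was 28.9% (25.4 to 32.5) of 655 cells, with 74 shallower cells left out. The 10% of mutant macrophages with the most held 45.8% of the Ifi202b UMIs, so the transcript was spread over most cells but unevenly.

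The neighbours of Ifi202b are given here from the highest to the lowest ratio in macrophages. Aim2, the inflammasome sensor, had 61.0 CPM (WT) and 80.6 CPM (mutant), a log2 ratio of 0.40 (0.27 to 0.54). It was 0.21 when macrophages were taken by C1q UMIs, and its interval included an equal level when UMIs were averaged per cell, at 0.12 (-0.015 to 0.26), or when cells were thinned, at 0.18 (-0.27 to 0.64). Averaging per cell also moved the median of all genes, from 0.19 to -0.091. Ifi204, an interferon-inducible DNA sensor related to human IFI16, had 138 and 161 CPM, and Ifi207 had 168 and 180 CPM. Their log2 ratios of 0.22 (0.13 to 0.31) and 0.10 (0.02 to 0.19) changed sign when UMIs were averaged per cell, to -0.061 and -0.18, or when macrophages were taken by C1q UMIs, to -0.10 and -0.11, and that of Ifi207 also when cells were thinned, to -0.037.

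Ifi205 had 94.5 CPM (WT) and 88.5 CPM (mutant), and its interval of -0.21 to 0.02 included an equal level. Ifi211 had 139 and 118 CPM and a log2 ratio of -0.23 (-0.33 to -0.13). Ifi203 and Ifi209 were alike, with 87.4 and 71.8 CPM for the former, a log2 ratio of -0.28 (-0.41 to -0.16), and 75.8 and 61.9 CPM for the latter, a log2 ratio of -0.29 (-0.43 to -0.16). Mndal, a PYHIN gene named for its likeness to the human myeloid nuclear differentiation antigen, had the lowest ratio of the 9, with 117 CPM (WT) and 84.5 CPM (mutant) and a log2 ratio of -0.47 (-0.58 to -0.35). For all 8263 genes the median log2 ratio was 0.19, and relative to it Aim2 stood at 0.21 and Mndal at -0.66. None of the other 8 members was at least 2-fold higher or lower, where 2.98% of all tested genes were at least 2-fold higher and 1.02% at least 2-fold lower. Of all tested genes, 26.9% lay further from 0 than Mndal.

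The family together had 881 CPM in WT and 1058 CPM in mutant macrophages. Without Ifi202b the sums were 881 and 847 CPM, and Ifi202b made up 19.95% of the family's UMIs in mutant macrophages. The other genes of the same cluster, which are not among the 9, also stayed below the Ifi202b contrast. Ifi206 had 25.5 and 14.1 CPM, a log2 ratio of -0.86 (-1.12 to -0.59), and Ifi213 had 24.8 and 21.2 CPM, a log2 ratio of -0.23 (-0.47 to 0.01). Ifi214, with only 14 and 72 UMIs, had 1.10 and 5.40 CPM and a log2 ratio of 2.29 (1.45 to 3.23), and 58.6% of the words in its 3' end are shared, mostly with Ifi209. Ifi208 had 17 and 19 UMIs.

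Macrophages were split further into inflammatory cells led by Mmp12, Cxcl3 and Spp1 (261 WT and 192 mutant cells), monocyte-like cells led by Plac8, Ly6c2 and Ccr2 (154 and 185) and resident-type cells led by Mrc1, Ccl8 and Folr2 (75 and 101). A haemoglobin- and Bpifb1-led group of 30 and 146 cells and a group of 51 and 105 cells stayed unnamed. Ifi202b was found in mutant cells of every one of these groups. Its level was 296 CPM (278 to 314) in mutant monocyte-like cells, 271 CPM (250 to 294) in resident-type cells and 161 CPM (152 to 172) in inflammatory cells, against 0, 1 and 0 UMIs in WT. The unnamed groups had 107 and 132 CPM. Monocyte-like and resident-type cells did not separate by their intervals in this split, and both stood above inflammatory cells. In a finer split (resolution 1.0) they did, with 438 CPM (407 to 471) in 97 mutant monocyte-like cells and 263 CPM (241 to 287) in 93 resident-type ones. Depth differed as well, with medians of 27657.5 UMIs in mutant inflammatory, 15567 in monocyte-like and 18249 in resident-type cells. Averaged per cell, these subsets had 5.28, 5.74 and 5.77 UMIs of Ifi202b.

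The other members differed most in resident-type macrophages, the Mrc1- and Folr2-expressing cells. There 5 of the 8 had at least 2-fold less in the mutant, and 4 of the 7 with at least 200 UMIs, where 1.18% of all 2875 genes with that many UMIs were at least 2-fold lower, and none was 2-fold higher, where 1.57% of genes were. Mndal had 287 CPM (WT) and 113 CPM (mutant), a log2 ratio of -1.34 (-1.59 to -1.09). Ifi209 had 140 and 55.3 CPM (-1.34, -1.71 to -0.97), and Ifi203 had 241 and 106 CPM (-1.19, -1.46 to -0.92). Ifi211 had 287 and 135 CPM (-1.09, -1.33 to -0.85). Of these 4, only Mndal had an interval wholly past 2-fold. Ifi211 stood at -0.97 without the cell with the most UMIs of the gene in each library.

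Ifi205, with 145 UMIs in all, had 101 and 21.4 CPM and a log2 ratio of -2.24 (-2.78 to -1.72). Ifi204 had 395 and 223 CPM (-0.83, -1.02 to -0.63), and Ifi207 had 691 and 409 CPM (-0.76, -0.90 to -0.61). Aim2 was the exception, with 93.0 CPM (WT) and 87.9 CPM (mutant) and an interval of -0.45 to 0.30. Summed over the 8, the levels were 2236 CPM (WT) and 1150 CPM (mutant), a log2 ratio of -0.96 (-1.04 to -0.88), while the median of all genes in these cells was 0.00. Depth moved with this result. Mutant resident-type cells had a median of 18249 UMIs and WT ones 12136 UMIs. When UMIs were averaged per cell, without dividing by depth, 1 of the 8 was at least 2-fold lower, Ifi205 at -1.54, and Aim2 turned higher, at 0.63. That averaging raises the log2 ratio of every gene in these cells by the same amount. The median of all genes thus rises above 0.00 with it, and each member keeps its distance from that median. With cells thinned to 2000 UMIs, 3 of the 8 were at least 2-fold lower. The contribution of depth to the result was not tested.

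In the other named subsets the members stayed closer together. In inflammatory cells the sum of the 8 was 632 and 538 CPM, a log2 ratio of -0.23 (-0.29 to -0.17), with Aim2 at 0.46 (0.27 to 0.65) and Mndal at -0.57 (-0.75 to -0.40). In monocyte-like cells the sum was 1299 and 1279 CPM, and the interval of its ratio, -0.09 to 0.04, included an equal level. Ifi204 had 208 CPM in WT and 265 CPM in mutant monocyte-like cells, 0.35 (0.19 to 0.51), opposite in direction to the resident-type cells. None of the 8 was at least 2-fold different in either subset, where 0.745% and 0.767% of tested genes were at least 2-fold lower and 2.3% and 1.58% at least 2-fold higher.

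Outside macrophages, Ifi202b was present in mutant cells of blood-forming and connective-tissue types and was at 0 UMIs in every WT type with at least 20 cells. Mutant myeloid progenitors had 216 CPM (198 to 235), close to macrophages at 211 CPM (203 to 219), and the intervals of these overlapped. Mesenchymal cells, the Dcn- and Col3a1-expressing fibroblast lineage, followed with 136 CPM (127 to 146). Their interval lay below that of macrophages, so the first step in this order was between progenitors or macrophages and mesenchymal cells.

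Dendritic cells had 115 CPM (74.2 to 169) from 25 UMIs, of which 20 were in 1 cell. Neutrophils had 66.3 CPM (60.1 to 72.9), T and NK cells 40.3 CPM (25.8 to 60.01) and endothelial cells 24.8 CPM (20.5 to 29.8). B cells at 20.8 CPM, chondrocytes at 20.2 CPM and smooth muscle cells and pericytes at 12.9 CPM did not separate from each other by their intervals. Osteocytes had 4 UMIs, Schwann cells 5 and erythroid cells 10 (1.504 CPM, 0.721 to 2.77), and muscle cells had 0, which allows up to 12.0 CPM at 3 UMIs. The mutant values thus ran from none in muscle and almost none in erythroid cells to over 200 CPM in the monocyte and macrophage lineage.

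With 3 UMIs standing in for the 0 of the WT library, the log2 ratio was 8.05 in mesenchymal cells (lower end of the interval 7.75). It was 7.46 (lower end 7.16) in myeloid progenitors, 6.43 (6.12) in neutrophils and 5.88 (5.56) in endothelial cells. Chondrocytes had 4.49 (4.13) and smooth muscle cells and pericytes 3.25 (2.85). The 116 mutant adipocytes had 108 CPM (85.3 to 135), with too few WT adipocytes for a comparison. The unnamed mutant cells had 30.2 CPM.

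Free RNA in the droplets was gauged by Bpifb1 and Lipf, transcripts of gland epithelium that the other types should lack. In mutant cells of the 14 types, Bpifb1 ran from 44.5 CPM in osteocytes to 202 CPM in smooth muscle cells and pericytes, a 4.52-fold range, and Lipf from 18.6 to 87.9 CPM, a 4.73-fold range. Ifi202b had 0 UMIs in muscle cells, 1.504 CPM in erythroid cells and 216 CPM in progenitors. Smooth muscle cells and pericytes, highest in both gland transcripts, had 12.9 CPM of Ifi202b. Mutant barcodes that the filter left out had 10.5 CPM (8.36 to 12.9). Whether free RNA contributed to the types with low values was not tested. The share of mutant cells with an Ifi202b UMI was 38.8% in mesenchymal cells at a median depth of 4574 UMIs and 1.53% in erythroid cells at a median depth of 9378 UMIs. Thinned to 2000 UMIs the shares were 26.1% in myeloid progenitors, 18.1% in mesenchymal cells, 6.77% in neutrophils, 4.98% in endothelial cells, 0.685% in Schwann cells and 0.162% in erythroid cells.

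Within neutrophils the clusters differed. Mature neutrophils led by Il1r2 and Cxcr2 had 18.4 CPM, immature ones led by Camp and Ngp 13.8 CPM, and another cluster, led by Ccl8 and Retnlg, 125 CPM (113 to 139). That cluster held 373 of the 425 neutrophil UMIs. It counted 250 mutant and 49 WT cells, and its leading gene, Ccl8, is also a leading gene of the resident-type macrophages. Whether other cells contributed to it was not tested. Within mesenchymal cells the Pi16- and Prg4-led cluster had 156 CPM (144 to 170), and a cluster led by Wfdc2 and Apod had 107 CPM (89.2 to 128).

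The other members each had their own distribution over cell types, and in WT cells these fell into recognisable patterns. Ifi205 was found in macrophages and mesenchymal cells, with 94.5 and 220 CPM in WT, and was near absent from endothelial cells, at 1.96 CPM. Ifi209 was found mainly in leukocytes, with 203 CPM in WT B cells and 170 CPM in myeloid progenitors but 2.22 CPM in mesenchymal and 1.54 CPM in endothelial cells. Ifi203 and Mndal reached lymphocytes and endothelium, with 272 and 374 CPM in T and NK cells and 229 and 338 CPM in endothelial cells. Ifi204, Ifi207 and Ifi211 were highest in myeloid and mesenchymal cells, Ifi207 with 226 CPM in myeloid progenitors and 205 CPM in mesenchymal cells. Aim2 was the only member with a sizeable level in erythroid cells, where it had 88.0 CPM (WT) and 126 CPM (mutant) and where no other member exceeded 15.2 CPM.

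**Figure D1:**
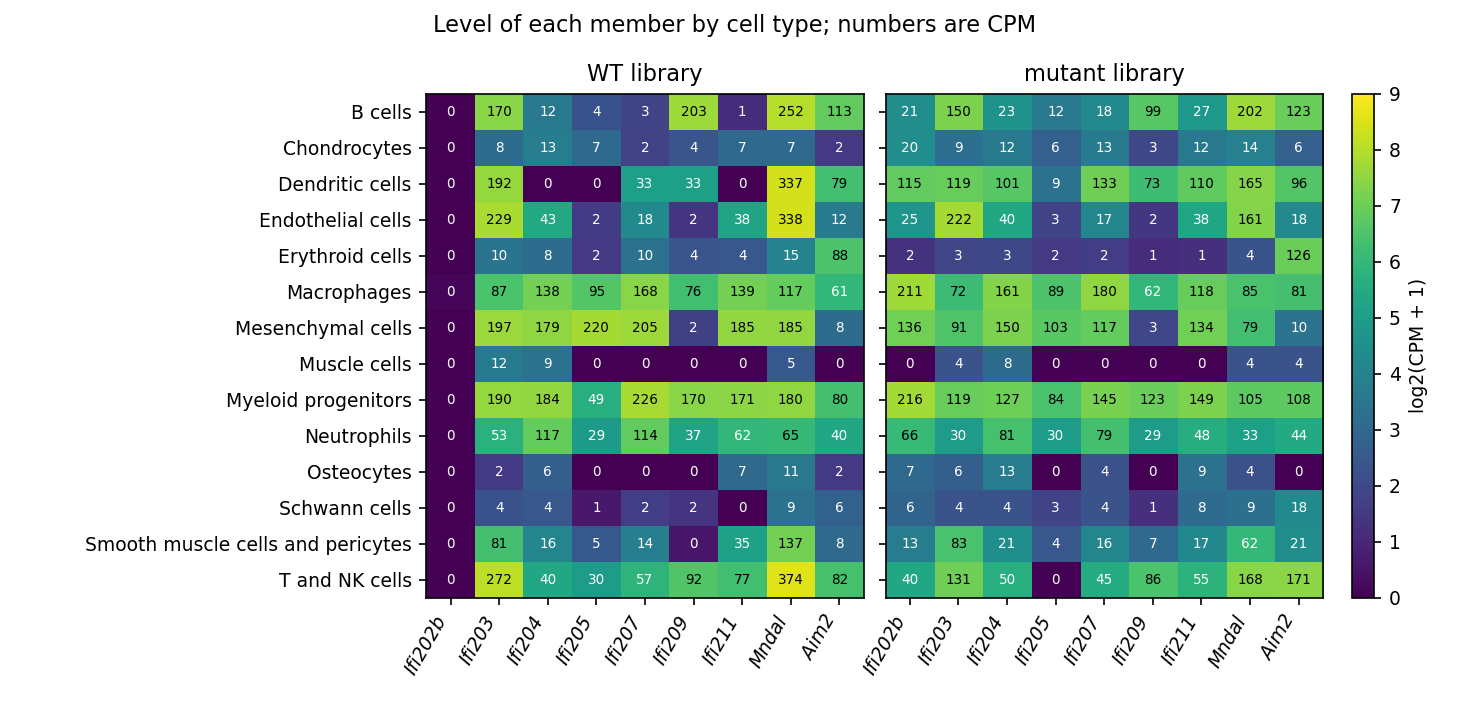
CPM of the 9 members (columns) in the 14 cell types (rows) of the WT and the mutant library, coloured by log2(CPM + 1) and rounded to whole CPM, so that the 0.0788 CPM of Ifi202b in WT macrophages prints as 0. The Ifi202b column is dark throughout the WT panel and in the mutant panel follows the myeloid and mesenchymal rows in which Ifi204, Ifi207 and Ifi211 are also high.

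Mndal was lower in the mutant over most of the tissue. Of the 12 types with at least 20 Mndal UMIs, its interval lay below an equal level in 10 and above it in 1, and it was at least 2-fold lower in 6. Among the 5648 genes with that many UMIs in at least as many types, 3.52% lay below in at least 10 types and above in at most 1. Endothelial cells had 338 CPM (WT) and 161 CPM (mutant), a log2 ratio of -1.07 (-1.19 to -0.95), where 1.02% of all tested endothelial genes were at least 2-fold lower. Each of the 3 endothelial clusters showed it, with 381 and 177 CPM in Gpihbp1-expressing capillary cells, 333 and 156 CPM in the cluster led by Sema3g and Gja5, and 301 and 150 CPM in the cluster led by Selp and Plvap. The difference was thus of similar size within each of the 3 clusters.

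Mesenchymal cells had 185 and 79.3 CPM of Mndal (-1.22, -1.39 to -1.06). In these cells 3 of the other 8 members, Mndal, Ifi203 and Ifi205, were at least 2-fold lower and 0 higher, where 1.68% of genes were lower and 2.24% higher by that much. The Pi16- and Prg4-led cluster held 243 of the 384 WT cells, and an Igha- and Timp1-led cluster held 223 of the 495 mutant cells. Within the Pi16- and Prg4-led cluster alone, the values were 199 and 86.1 CPM. T and NK cells had 374 and 168 CPM (-1.15, -1.53 to -0.78), where 4.32% of genes with at least 200 UMIs were at least 2-fold lower. Smooth muscle cells and pericytes had 137 and 62.1 CPM (-1.14, -1.46 to -0.84), and erythroid cells 15.2 and 4.06 CPM (-1.91, -2.64 to -1.21), where 11.7% of the 9481 genes with at least 20 UMIs and 3.36% of those with at least 200 UMIs were at least 2-fold lower. Chondrocytes went the other way, with 7.49 and 14.0 CPM from 25 and 29 UMIs (0.90, 0.08 to 1.73). Averaged per cell, without dividing by depth, the direction of Mndal turned in B cells, from -0.32 to 0.14, the chondrocyte ratio was 0.14 and the endothelial one -0.69, and the intervals in B cells and chondrocytes included an equal level. Such averaging shifts the log2 ratio of every gene in a type by the same amount. In B cells the median of all genes thus rises with Mndal, which keeps its distance from it. Median depths were 12811 (WT) and 4574 (mutant) UMIs in mesenchymal cells. In smooth muscle cells and pericytes they were 9144.5 and 2513 UMIs. How far depth contributed to the ratios of the members in these types was not tested.

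Aim2 ran opposite to Mndal. Its interval lay above an equal level in 7 of 11 types with at least 20 Aim2 UMIs and below it in 0. Among the 6637 genes with that many UMIs in at least as many types, 7.47% lay above in at least 7 types and below in none. T and NK cells had 82.2 and 171 CPM (1.06, 0.48 to 1.67), where 8.71% of the 6634 genes with at least 20 UMIs and 4.42% of those with at least 200 UMIs were at least 2-fold higher. Smooth muscle cells and pericytes had 7.67 and 20.8 CPM (1.44, 0.60 to 2.35), and Schwann cells had 6.02 and 18.1 CPM (1.59, 0.34 to 2.87), from 11 and 14 UMIs. Erythroid cells, in which 2.05% of genes were at least 2-fold higher, had a log2 ratio of 0.52 (0.32 to 0.71), myeloid progenitors 0.44 (0.16 to 0.71) and endothelial cells 0.57 (0.12 to 1.03). In mesenchymal cells, at 8.03 and 9.63 CPM, and in neutrophils, at 39.8 and 44.1 CPM, the intervals included an equal level. Averaged per cell, 0 of the 7 higher types of Aim2 turned, but the interval stayed above an equal level in 5 of them, since it included one in macrophages and in myeloid progenitors, at 0.17 (-0.10 to 0.44).

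The remaining members were lower in the mutant in some types and not in others. Ifi203 lay below an equal level in 6 of 11 types and above it in 0. Of the 6637 genes counted in at least 11 types, 7.59% lay below in at least 6 and above in none. It had 197 and 91.3 CPM in mesenchymal cells (-1.11, -1.27 to -0.96) and 272 and 131 CPM in T and NK cells (-1.05, -1.49 to -0.62), where 7.13% of genes with at least 20 UMIs were at least 2-fold lower, but 229 and 222 CPM in endothelial cells (-0.05, -0.16 to 0.07). There Mndal, which shares 37 exon bases with it and whose annotated span encloses most of it, differed by over 2-fold.

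Ifi205 had 220 and 103 CPM in mesenchymal cells (-1.10, -1.25 to -0.96) and 48.6 and 83.8 CPM in myeloid progenitors (0.79, 0.45 to 1.12), so its direction turned between these types. Ifi209 had 203 and 99.2 CPM in B cells (-1.03, -1.43 to -0.65), where 4.28% of genes were at least 2-fold lower. In the same cells Ifi207 went from 2 to 16 UMIs (2.84, 0.75 to 6.01) and Ifi211 from 1 to 23 UMIs (4.37, 1.74 to 9.73). Of the 8198 genes with at least 20 UMIs, which include Ifi211 but not Ifi207, 9.88% were at least 2-fold higher. Of those with at least 200 UMIs, which hold neither member, 7.03% were. Ifi204, Ifi207 and Ifi211 in mesenchymal cells stood at -0.26, -0.80 and -0.47. In myeloid progenitors Ifi204 and Ifi207 stood at -0.54 (-0.75 to -0.33) and -0.64 (-0.83 to -0.44), and Ifi211 at -0.20 with an upper bound of 0.00. None of the 8 passed 2-fold in progenitors, where 0.608% of genes were at least 2-fold lower and 2.64% higher. Over the 14 types the median log2 ratio of all tested genes ran from -0.08 to 0.19.

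Across the 16 named types with at least 20 cells in the mutant library, the level of Ifi202b, as log2(CPM + 5), followed that of its neighbours. Pearson's r was 0.98 with Ifi207, 0.97 with Ifi211 and 0.94 with Ifi204, the 3 highest of all genes compared, followed by Naaa at 0.92 and AI413582 at 0.90. It was 0.85 with Ifi205, 0.70 with Ifi203, 0.68 with Mndal, 0.60 with Ifi209 and 0.33 with Aim2. The types share 1 library, and this calculation within the mutant library was added after the values were seen. Over the 30 types of both libraries the highest were Nmt1 at 0.76, Gm11273 at 0.73, Pet100 and Gm15056 at 0.71 and Ndufb1-ps at 0.69. Since Ifi202b had 1 UMI in all kept WT cells, that ranking also reflects the contrast between the libraries for which Ifi202b was selected. None of these genes was among the highest within the mutant library. For the sum of the other 8 members over the 30 types they were Trim30a at 0.90, Sp110 at 0.86, Ly6e at 0.85, Phf11b at 0.84 and Trim30d at 0.82, of which Trim30a and Ly6e are known to be induced by interferon.

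The pathways to which the family belongs were compared in macrophages through lists of 62 genes. Of all genes tested there, 2.98% were at least 2-fold higher in the mutant and 1.02% at least 2-fold lower. Of 19 type I interferon-stimulated genes tested, 1 was at least 2-fold higher in the mutant and 0 lower, and their median log2 ratio was 0.43. The 1 was Oasl1, an inhibitor of interferon production, at 24.7 and 52.1 CPM (1.08, 0.88 to 1.28). Of 14 genes induced by interferon-gamma, 3 were at least 2-fold higher and 0 lower, with a median of 0.49. They were the T cell-attracting chemokines Cxcl10 (60.9 and 194 CPM, 1.67) and Cxcl9 (177 and 458 CPM, 1.38) and Ciita, the regulator of MHC class II genes (30.2 and 64.4 CPM, 1.09). The median of the other 8 members was -0.16, below that of all tested genes at 0.19, while both interferon lists stood above it.

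Of 10 inflammasome genes 1 was at least 2-fold higher (2.98% of all tested genes) and 0 lower (1.02% of them), with a median of 0.15. It was Casp4, the sensor of cytosolic lipopolysaccharide, at 76.5 and 160.5 CPM (1.07, 0.96 to 1.18). Pycard, the adaptor that Aim2 engages, stood at -0.17, Nlrp3 at 0.18, Casp1 at 0.60 and its substrate Il18 at 0.89. Of 6 cytosolic DNA sensing genes and 9 interferon receptor and signalling genes 0 passed 2-fold in either direction, with medians of 0.36 and 0.44. Cgas, the synthase that signals from cytosolic DNA, stood at 0.92 (0.59 to 1.25). In the mean per cell, 2 list genes were at least 2-fold higher in place of 5.

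Resident-type macrophages differed from the whole here as well. Of 12 type I interferon-stimulated genes tested, 3 (Irf7, Ifit2 and Ifit3) were at least 2-fold lower in the mutant and 0 higher, with a median of -0.70. Of 11 interferon-gamma-induced genes 1 (Cxcl9, 2.87) was at least 2-fold higher and 0 lower, with a median of 0.42. Over all genes tested in these cells, 1.18% were at least 2-fold lower and 1.57% at least 2-fold higher. The members' lower CPM in these cells thus stood beside lower type I genes and a higher Cxcl9. These list values are CPM as well, in cells whose depth differed between the libraries as given above. How far depth contributed to them was not tested. In inflammatory cells 4 of 14 interferon-gamma genes (Cxcl9, Cxcl10, Ciita and Iigp1) were at least 2-fold higher, and in monocyte-like cells 3 of 17 type I genes (Oasl1, Rsad2 and Ifit2). Over all tested genes, 2.3% in inflammatory and 1.58% in monocyte-like cells were higher by that much.

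Position along chromosome 1 was examined because the family and Prox1 share it. In macrophages 501 genes of chromosome 1 had at least 200 UMIs, and 6 (1.198%) were at least 4-fold different, against 0.532% of all tested genes. Ifi202b, which was selected for its contrast, is counted in both shares. Besides Ifi202b, the genes of chromosome 1 past 4-fold were Chil1, a chitinase-like gene of neutrophils and epithelium, at 4.81, Npl at 2.88, Ctse at 2.81, Aff3 at 2.25 and Kcnq5 at 2.13. The next 4 were Slc40a1, the iron exporter, at 1.82, Itpkb at 1.75, Zranb3 at -1.63 and Rgl1 at 1.53. Of these, Itpkb alone lies between Ifi202b and Prox1, 6.37 Mb from Ifi202b. Of the 48 genes tested from Ifi202b to Prox1, 1 was at least 4-fold different (Ifi202b), and 6 were at least 2-fold different, 5 higher and 1 lower, with a median of 0.14. Without Ifi202b, these were 5 of 47 (10.6%), against 6.59% of the genes of chromosome 1 and 3.99% of all tested genes, both counted with Ifi202b. All 11 genes tested within 1 Mb of Ifi202b belong to the family or its cluster, and Ifi202b was the only one at least 2-fold different. Ifi214 and Ifi208 of the cluster had too few UMIs to be tested. Ifi214, 426.6 kb from Ifi202b, stood at 2.29 (1.45 to 3.23) from 14 and 72 UMIs, and Ifi208 at 0.09 (-0.93 to 1.12).

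**Figure D2:**
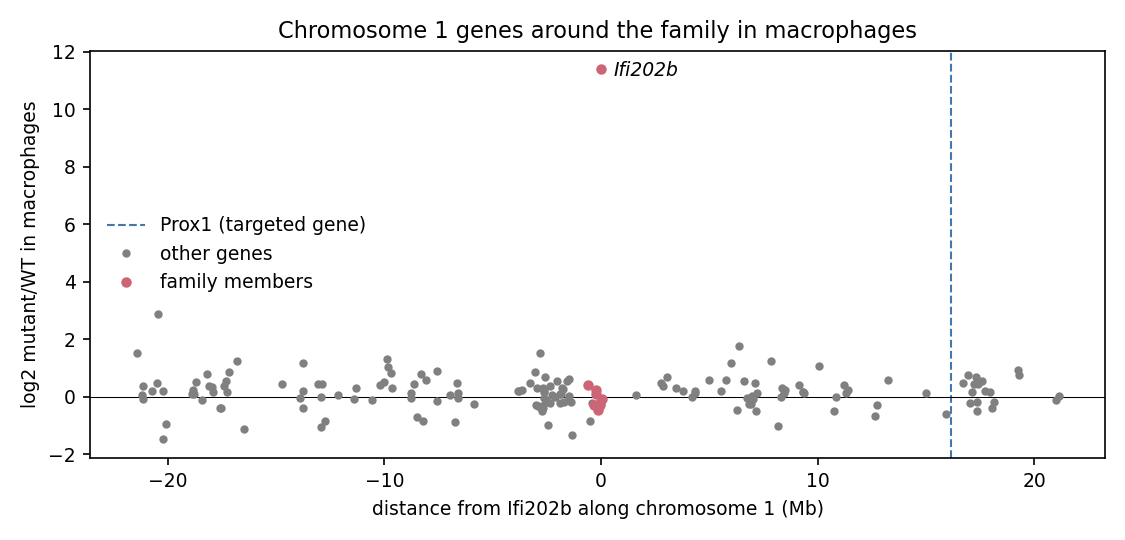
Log2 ratio of mutant over WT CPM in macrophages for the genes of chromosome 1 with at least 200 UMIs, against distance from Ifi202b in Mb, with the family members and the place of Prox1 marked. Ifi202b at 11.39 stands far above the genes around it, and the 5 other genes past 4-fold lie 20.5 Mb or more from it.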

How the data were processed

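The authors captured TMJ cells with the 10x Genomics 3' assay, and the labels and the study's methods name different versions of the kit. Per the submitters' processing notes they used Cell Ranger 7.0.1 on mm10, and they deposited raw UMI counts per gene and barcode, not normalized. Whether doublets had been removed before deposit and whether intronic reads were counted is not given in the sources used here. Counts are of called barcodes, 5709 in WT and 7846 in the mutant, with 53517206 and 62446987 UMIs.

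A cell was kept if it had 500 genes or more and a mitochondrial share below 10%, which left out 1357 WT and 2089 mutant barcodes. Clustering used SCTransform, anchor integration with 3000 features from which the family was removed, 200 principal components and resolution 1.5 (Seurat 5.3.0, sctransform 0.4.2, R 4.3.3), and gave 46 clusters. Macrophages were reclustered with 30 principal components at resolution 0.5. A cluster was named when at least 3 markers of a type were raised at least 2-fold in at least 10% of cells and no other lineage led it. Doublets were kept. A caller (Scrublet through scanpy 1.11.5) made 0 calls at its automatic threshold, so its top-scored barcodes were removed in an alternative. Intervals and ratios were computed in Python 3.11.15 with scipy 1.17.1, for cell types with at least 20 cells in both libraries. Genes counted among all tested had at least 200 UMIs, and where a library had 0 UMIs of a gene, 3 UMIs stood in for a bound. The ratio calculation was tested on simulated counts. Gene positions are those of GENCODE for GRCm38.

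The members, the gene lists and the alternatives were chosen with earlier results of these data known. The genes named are the members, list genes at least 2-fold different in macrophages, the 10 genes of chromosome 1 with the largest ratio, the 5 genes most like Ifi202b and the 5 most like the sum of the other members, and Prox1. Genes named beyond that rule, among them the other genes of the cluster, Dmbt1, Rpl29, Pycard, Nlrp3, Casp1, Il18, Cgas and the list genes of the macrophage subsets, were chosen after their values were seen.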

Additional observations from a re-analysis of the deposited data

Results flagged for a closer look

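Among cell types with at least 200 UMIs of the gene, the direction of 3 members turned between types, each by an interval that excluded an equal level on both sides. With at least 20 UMIs there were 5, adding Ifi211, at 4.37 in B cells and -0.47 in mesenchymal cells, and Mndal, at 0.90 in chondrocytes and -1.22 in mesenchymal cells. None of these differences between types was tested, since each library is 1 sample, and the intervals cover counting error only. Ifi204 had a log2 ratio of mutant over WT of 0.22 in macrophages and of -0.54 in myeloid progenitors, and within macrophages of 0.35 in monocyte-like cells and of -0.83 in resident-type cells. Ifi205 had 0.79 in myeloid progenitors and -1.10 in mesenchymal cells. Ifi207 had 0.10 in macrophages and -0.80 in mesenchymal cells, and within macrophages 0.18 in monocyte-like and -0.76 in resident-type cells. The positive macrophage values of Ifi204 and Ifi207 are also those that changed sign with the way UMIs were scaled. Relative to the median log2 ratio of all genes tested in macrophages, 0.19, Ifi204 stood at 0.030 and Ifi207 at -0.089.

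Barcodes that the filter on genes and mitochondrial UMIs left out of every comparison held Ifi202b as well. In the mutant library they had 85 UMIs, 10.5 CPM (8.36 to 12.9), and in the WT library 0 UMIs, with an upper bound of 0.716 CPM. The mutant cells that were kept had 93.3 CPM (90.7 to 95.9).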

How the results depend on the processing

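No paired analysis was possible because each genotype had 1 library and the labels give no replicate numbers. The log2 ratio of Ifi202b in macrophages was between 10.92 and 11.50 under 9 alternatives. WT had 0 UMIs under 2 others, and 3 UMIs stood in for a bound. That was 9.78 (lower end of the interval 9.48) without the cell with the most UMIs in each library. With cells thinned to 2000 UMIs it was 6.24 (lower end 5.93). The count of other members at least 2-fold different was 0 in all 11 alternatives. Of 88 values of the other members under alternatives, 67 stayed within the counting interval of the reported value, 16 moved by more and 5, of members whose interval excluded an equal level, changed sign: Ifi204 to -0.10 with macrophages taken by at least 3 C1q UMIs and to -0.061 with the mean per cell, and Ifi207 to -0.11, to -0.18 and, thinned, to -0.037. Ifi205, whose interval included an equal level, also changed sign in 2 of the 67, to 0.021 with the libraries merged without integration and to 0.0092 thinned. The count of list genes at least 2-fold different, 5, was 4 to 6 in 8 alternatives and 2 with the C1q rule, 2 with the mean per cell and 3 thinned. On chromosome 1 the count past 4-fold, 6, was 20 among genes with at least 50 UMIs, 16 over all kept cells and 5 without the unnamed subclusters, and 33 genes passed 2-fold. The log2 ratio of Ifi202b in mutant mesenchymal cells over mutant macrophages, -0.63, was -0.45 with the looser filter (200 genes, under 20% mitochondrial UMIs), -0.51 with a stricter one (under 5% mitochondrial UMIs and more genes) and -0.94 thinned. That of resident-type over inflammatory macrophages, 0.75, was 0.70 at resolution 1.0. There the inflammatory name covered only 107 WT and 86 mutant cells. A cluster led by Mmp12 and Spp1, with 152 and 101 cells, stayed unnamed because markers of another lineage, osteoclasts being its best match, led it. Of the other members in resident-type macrophages, 5 were at least 2-fold lower, 5 at resolution 1.0 and with the C1q rule, 4 without the cell with the most UMIs of the gene in each library, 3 thinned and 1 with the mean per cell, which raises every gene there alike. These resident-type alternatives, the mean per cell in the other cell types and the one without the unnamed subclusters were chosen after seeing the data. The cause of the other changes was not tested. Depth limits what low types can show: with 0 UMIs in 35 mutant muscle cells, up to 12.0 CPM of Ifi202b would have been missed.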

Other observations

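A contrast of at least 8-fold in the same direction in every cell type where a gene had at least 20 UMIs, over at least 5 types, was found in 2 other genes of 11561. Dmbt1, a gland and epithelial gene on chromosome 7, was higher in the mutant, and Rpl29, a ribosomal protein gene on chromosome 9, was lower in all 14 types, with log2 ratios of -6.52 to -4.65. Ifi202b did not meet this rule in dendritic cells and in T and NK cells, with 25 and 24 UMIs. There its log2 ratios, with 3 UMIs standing in for the WT library, were 2.53 and 2.43.

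Among erythroid cells of the mutant library, Aim2 was highest in 1 small cluster led by Slc6a20a, Sox6 and Kel, early erythroid genes, with 98 UMIs in 51 cells (484 CPM, 393 to 589.5). The dividing erythroid cells led by Hemgn and histone genes had 117 CPM (WT) and 154 CPM (mutant), and the cells led by Slfn14 and Tmcc2 had 53.4 and 88.6 CPM. No other member exceeded 17.3 CPM in any of these 3 clusters, the highest being Mndal in the dividing WT cells.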
